A study of Saccharomyces cerevisiae with 12 samples.

Results

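The genes described here encode the nuclear subunits of the yeast respiratory chain and of the mitochondrial ATP synthase. They are a fixed list of 34 genes, chosen by name, out of 5449 genes measured. Earlier results of these data were known when the list was made. The list holds 3 NADH dehydrogenases, 4 genes of succinate dehydrogenase (complex II), 9 of the cytochrome bc1 complex (complex III), 7 of cytochrome c oxidase (complex IV) and 11 of the ATP synthase (complex V). All 34 were measured, each by 1 probe set, and all lay above the background of the arrays.

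Transcripts were measured on 12 Affymetrix arrays of Saccharomyces cerevisiae, in 6 groups of 2. E62A, E62B and E62C are mutants that the study evolved on galactose. SO16 is an engineered strain that, as known from the study, lacks GAL80, MIG1 and LAP3 (GAL6), and PGM2 is the label of a strain engineered to overexpress the phosphoglucomutase gene PGM2. REF is the unmodified strain. All groups share the haploid laboratory background CEN.PK113-7D and were sampled in mid-exponential phase from fermenters held at pH 5.0, in minimal medium with galactose. Each label stands for 1 strain. Nothing in the labels tells separate cultures from repeat hybridizations, so the error given here is the spread of arrays and may be technical. The small number of arrays sets the precision.

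In mitochondria, electrons from NADH and succinate pass through ubiquinone, complex III and cytochrome c to complex IV, which reduces oxygen. Budding yeast has no proton-pumping complex I. Single-chain dehydrogenases take its place, with Ndi1 facing the matrix and Nde1 and Nde2 oxidising cytosolic NADH at the outer face of the inner membrane. Complexes III and IV pump protons, and the ATP synthase uses the resulting gradient. Many of the nuclear genes for these subunits are activated by the Hap2/3/4/5 complex and are repressed on glucose. Galactose represses them less, and yeast on galactose both respires and ferments.

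Values are log2 levels, and changes are log2 differences ± the standard error of the limma fit, with 2 arrays in each group. A gene is called where its p adjusted by Benjamini-Hochberg over all 5449 genes was under 0.05. As a check of the labels, the PGM2 transcript was at 13.43 and 13.19 on the arrays labelled E62C and at 10.49 and 10.87 on the arrays labelled PGM2, against 12.14 and 12.11 in REF. The level of the gene goes against the label PGM2, so these groups are called the arrays labelled E62C and the arrays labelled PGM2. Whether the labels of these groups were exchanged was not tested. If they were, every value given for one belongs to the other strain. The deleted genes fitted the label SO16: the level of GAL80 was 6.29 and 6.04 in SO16 and 11.32 and 11.43 in REF. MIG1 had 5.84 and 5.62 in SO16 and 9.20 and 9.29 in REF, and LAP3 had 5.72 and 5.87 in SO16 and 10.63 and 10.77 in REF. The second SO16 array and the second array labelled E62C had weak hybridization controls, at 8.90 and 8.91 on average over 21 probe sets, against 10.1 to 11.6 on the other 10 arrays. Ribosomal RNA probe sets averaged 11.55 and 11.91 on these arrays, against 8.89 to 10.32 on the others.

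The group means of most chain subunits lay close together, and the widest spans over the 6 groups were those of the external NADH dehydrogenases, 0.64 for NDE2 and 0.39 for NDE1. Against REF, 3 of 34 genes fell in E62A, where 6.97% of all genes fell and 12.5% were called in either direction. In SO16 1 of 34 fell, where 5.1% of all genes fell and 8.79% were called. On the arrays labelled PGM2 1 of 34 fell, where 6.53% of all genes fell and 13.6% were called. None was called on the arrays labelled E62C, where 9.8% of all genes were called, and 4 of the 34 had an unadjusted p under 0.05 in limma. None was called in E62B, where 0% of all genes were called by limma, 0 of the 34 had an unadjusted p under 0.05, and 97 genes of the whole array did. A moderated F test for any difference among the 6 groups called 3 of the 34 genes, NDE1, NDE2 and ATP15, against 27.2% of all genes. Without the 2 weak arrays, which leaves 1 array of SO16 and 1 labelled E62C, the calls against REF were 4 in E62A, 0 in E62B, 1 on the array labelled E62C, 1 in SO16 and 2 on the arrays labelled PGM2, and the F test called 5. Most members are bright: 32 of 34 had a mean level of 12 or more on arrays whose highest value was 14.4, where differences can be understated. Among the 428 genes this bright, a limit set after the data were seen, the F test called 22.2%. Against REF, limma called 35 of these in E62A, 0 in E62B and 33 in SO16. It called 47 on the arrays labelled E62C and 49 on those labelled PGM2.

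**Figure D1:**
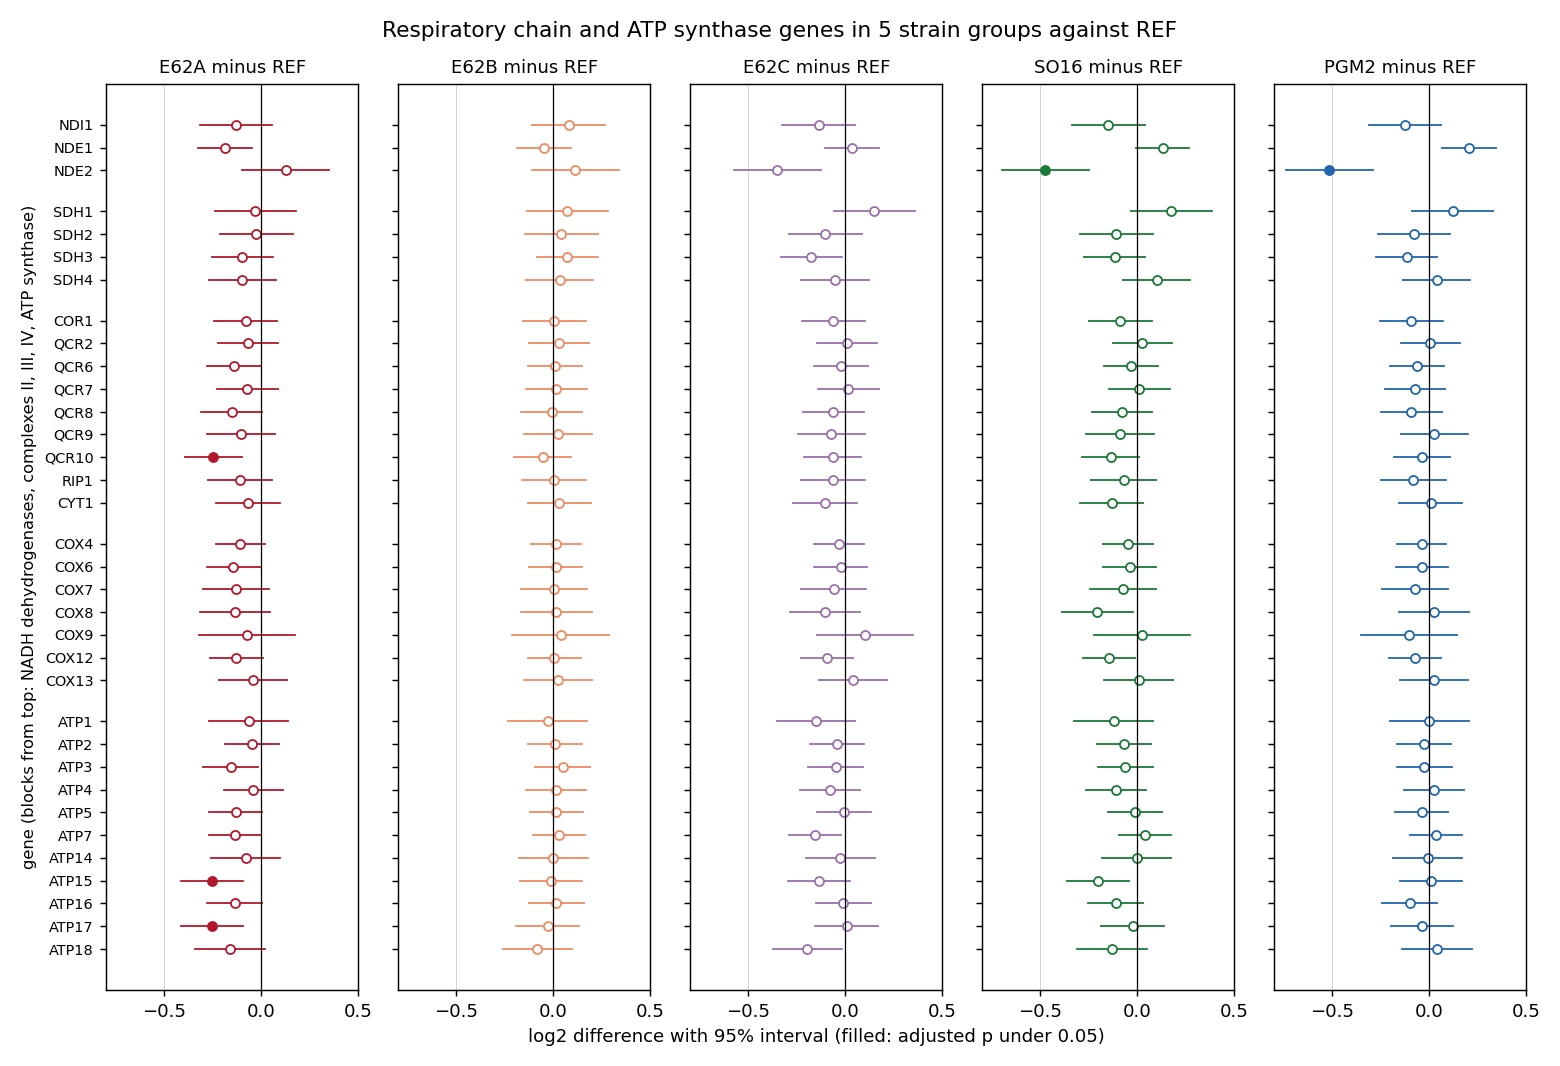
Log2 difference from REF of each of the 34 genes (one row each, blocks from top: NADH dehydrogenases, complexes II, III and IV, ATP synthase) in E62A, E62B, E62C, SO16 and PGM2. Points are fitted differences, lines are 95% intervals, and filled points have an adjusted p under 0.05. Nearly all points lie close to 0, NDE2 falls in SO16 and in the arrays labelled PGM2, and 33 of 34 points lie below 0 in E62A.

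NDE2 encodes the minor external NADH dehydrogenase, and it had the widest range of all members. Its level was 7.91 and 7.95 in E62A, 8.02 and 7.82 in E62B, 7.53 and 7.38 on the arrays labelled E62C, 7.20 and 7.47 in SO16, and 7.23 and 7.35 on the arrays labelled PGM2, against 7.75 and 7.86 in REF. The arrays labelled E62C and PGM2 and the SO16 arrays thus all lay below every E62A, E62B and REF array. NDE2 fell by 0.52 ± 0.10 on the arrays labelled PGM2 relative to REF, which is 1.43-fold (adjusted p = 0.00608), and by 0.48 ± 0.10 in SO16, which is 1.39-fold (adjusted p = 0.0136). On the arrays labelled E62C the difference from REF was -0.35 ± 0.10 and missed the threshold (adjusted p = 0.0552). In E62A it was 0.13, with a 95% interval of -0.10 to 0.35.

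The fall of NDE2 in both groups rested on single arrays for its call, though not for its direction. Without the first array labelled PGM2 the adjusted p was 0.0687, and without the second REF array it was 0.0625. In SO16 it was 0.0673 without the first SO16 array, 0.0528 without the first REF array and 0.0992 without the second REF array, and with array weights it was 0.0687. The 2 SO16 values lie far apart, and the higher one, 7.47, comes from an array with weak hybridization controls. Without the 2 weak arrays, the single SO16 array left was 0.61 below REF (adjusted p = 0.00212), a value that assumes it varies like the other groups.

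NDE1, the major external NADH dehydrogenase, was ordered the other way round. It lay at 12.56 and 12.58 in E62A, 12.70 and 12.72 in E62B, 12.80 and 12.79 on the arrays labelled E62C, 12.85 and 12.93 in SO16, and 12.95 and 12.98 on the arrays labelled PGM2, against 12.71 and 12.81 in REF. Both E62A arrays lay below the other 10 arrays, and both arrays labelled PGM2 lay above them all. Neither end of this order passed the test against REF: the difference was -0.19 ± 0.06 in E62A (adjusted p = 0.0822) and 0.21 ± 0.06 on the arrays labelled PGM2 (adjusted p = 0.0531). With the 2 weak arrays left out both were called, at adjusted p values of 0.0351 and 0.0224.

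In direct comparisons between E62A and the other modified groups, NDE1 and NDE2 were called in opposite directions. NDE1 was lower in E62A than on the arrays labelled PGM2 by -0.39 ± 0.06, which is 1.31-fold (adjusted p = 9.77e-04), and NDE2 was higher by 0.64 ± 0.10, which is 1.56-fold (adjusted p = 9.65e-04). Both of these calls held in all 23 alternative settings, which are the 12 fits with 1 array left out and 11 other changes of processing at the same threshold. Between E62A and SO16, NDE1 differed by -0.32 ± 0.06 (adjusted p = 0.0048) and NDE2 by 0.60 ± 0.10 (adjusted p = 0.00184). The NDE1 call was lost without the first E62A array (adjusted p = 0.0536), and the NDE2 call held in all 23 settings. Between E62A and the arrays labelled E62C, NDE1 differed by -0.22 ± 0.06 (adjusted p = 0.0334) and NDE2 by 0.48 ± 0.10 (adjusted p = 0.00925).

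The E62A to E62C contrast was the least firm of these. The NDE1 call ended without any 1 of the E62A, E62B or E62C arrays, at adjusted p values of 0.0613 to 0.199. The NDE2 call ended without either E62A array (0.0526 and 0.0725) or without the second array labelled E62C (0.0605). These comparisons share the E62A arrays.

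The group means of NDE1 ran, from high to low, PGM2, SO16, E62C, REF, E62B and E62A, and those of NDE2 ran in exactly the opposite order. This is a description of 6 groups with shared arrays, and not all neighbours in it can be told apart. For NDE2, the arrays labelled PGM2 differed from SO16 by -0.04 (95% interval -0.27 to 0.19), and the arrays labelled E62C from SO16 by 0.12 (-0.10 to 0.35). For NDE1, these differences were 0.08 (-0.06 to 0.21) and -0.10 (-0.23 to 0.04). E62A and E62B were not compared with each other.

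NDI1, the internal NADH dehydrogenase that oxidises matrix NADH, moved less than either. Its arrays ran between 12.07 and 12.41 and no comparison called it. It lay at 12.16 and 12.20 in E62A, 12.22 and 12.13 on the arrays labelled E62C, 12.14 and 12.19 in SO16, and 12.07 and 12.30 on the arrays labelled PGM2, against 12.24 and 12.39 in REF. The differences of these 4 groups from REF lay between -0.15 and -0.13, each with an interval that includes 0.

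**Figure D2:**
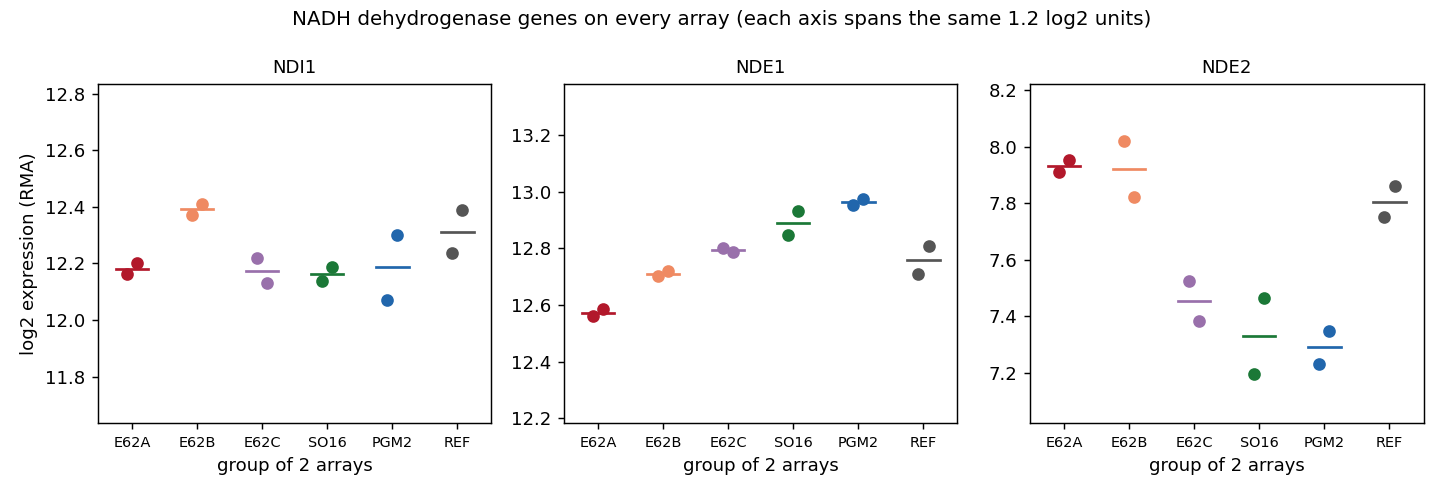
Log2 level of the 3 NADH dehydrogenase genes on every array (points) with the mean of each group of 2 (bars), on vertical axes of equal span. NDE1 climbs and NDE2 drops across the groups from E62A to the arrays labelled PGM2, while NDI1 stays between 12.07 and 12.41.

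Complex II oxidises succinate and is shared by the citric acid cycle and the chain. In the main fit, limma called none of its 4 genes in any comparison. At an unadjusted p under 0.05 there was 1 on the arrays labelled E62C against REF (SDH3) and 1 between E62A and SO16 (SDH4). SDH1, the flavoprotein subunit, lay at 12.30 and 12.37 in E62A, 12.40 and 12.48 in E62B, 12.55 and 12.49 on the arrays labelled E62C, 12.46 and 12.63 in SO16 and 12.39 and 12.60 on the arrays labelled PGM2, against 12.26 and 12.47 in REF. The REF arrays lie apart by as much as the groups do, and the differences from REF ran from -0.03 in E62A to 0.18 in SO16 (interval -0.03 to 0.39). SDH3, a membrane anchor, was lowest on the arrays labelled E62C, at 12.75 and 12.88, against 12.95 and 13.03 in REF, a difference of -0.18 ± 0.07 (adjusted p = 0.154), and it was the gene called there without the 2 weak arrays. SDH2, the iron-sulfur subunit, ranged from 12.77 to 13.03 over all arrays, and SDH4, the other anchor, from 12.41 to 12.67.

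Complex III passes electrons from ubiquinol to cytochrome c. Of its 9 genes, QCR10 alone was called in the main fit. QCR10, a small peripheral subunit, lay at 12.26 and 12.24 in E62A, 12.46 and 12.42 in E62B, 12.40 and 12.46 on the arrays labelled E62C, 12.40 and 12.32 in SO16 and 12.41 and 12.50 on the arrays labelled PGM2, against 12.54 and 12.45 in REF. Both E62A arrays lay below the other 10. It fell by 0.25 ± 0.07 in E62A relative to REF (adjusted p = 0.0319) and was 0.21 ± 0.06 lower in E62A than on the arrays labelled PGM2 (adjusted p = 0.0428).

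The other genes of complex III had narrow ranges. CYT1, cytochrome c1, ran from 12.93 to 13.19 over the 12 arrays, and the group means of RIP1, the Rieske iron-sulfur protein, lay within 0.113 of each other. The core subunit genes COR1 and QCR2 had group means within 0.10 of each other. QCR7 had group means within 0.09, and QCR8 ran from 8.85 to 9.09, well down the scale, below the levels where the scale ends. For QCR6 and QCR9 the group means lay within 0.15 and 0.13.

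Complex IV reduces oxygen to water, and limma called none of its 7 genes in any comparison of the main fit. At an unadjusted p under 0.05 there were 2 in SO16 against REF (COX8 and COX12), 1 in E62A against REF (COX6) and 1 between the arrays labelled PGM2 and SO16 (COX8). COX8, a small subunit, had the widest span of group means in this complex, 0.230, with 12.63 and 12.55 in E62A, 12.68 and 12.56 on the arrays labelled E62C, 12.61 and 12.42 in SO16 and 12.74 and 12.75 on the arrays labelled PGM2, against 12.78 and 12.66 in REF. Its difference from REF in SO16 was -0.21 ± 0.08 (adjusted p = 0.178), and the lower SO16 value is from the array with weak hybridization controls. COX9 lay at 12.44 and 12.82 on the arrays labelled E62C, the widest gap between 2 arrays of a group among all members, and the higher value is again from a weak array. COX4 and COX6 ran from 12.71 to 12.87 and from 12.69 to 12.87, with both E62A arrays below the other 10 in each. The group means of COX7, COX12 and COX13 differed by at most 0.152.

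The ATP synthase has a catalytic F1 head, a central stalk and a membrane rotor and stator. The genes of the alpha and beta subunits of F1 were not called: the group means of ATP1 lay within 0.15 and those of ATP2 within 0.08. ATP1 lay at 13.89 and 13.67 on the arrays labelled E62C and at 13.93 and 13.69 in SO16, against 13.91 and 13.95 in REF. In both groups the lower value is from the weak array.

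The calls fell on 2 small subunits. ATP15, the epsilon subunit of the central stalk, lay at 12.67 and 12.61 in E62A, 12.89 and 12.88 in E62B, 12.81 and 12.70 on the arrays labelled E62C, 12.76 and 12.63 in SO16 and 12.96 and 12.84 on the arrays labelled PGM2, against 12.91 and 12.88 in REF. It fell by 0.25 ± 0.07 in E62A relative to REF (adjusted p = 0.0429) and was 0.26 ± 0.07 lower in E62A than on the arrays labelled PGM2 (adjusted p = 0.024). The second SO16 array, one of the weak arrays, lies between the E62A values.

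ATP17, subunit f of the membrane part, separated E62A from all other arrays. It lay at 12.10 and 12.08 in E62A, 12.31 and 12.31 in E62B, 12.30 and 12.40 on the arrays labelled E62C, 12.25 and 12.38 in SO16 and 12.28 and 12.33 on the arrays labelled PGM2, against 12.41 and 12.27 in REF. It fell by 0.25 ± 0.07 in E62A relative to REF (adjusted p = 0.0443). Against the arrays labelled E62C the difference was -0.26 ± 0.07 (adjusted p = 0.0324), against SO16 -0.23 ± 0.07 (adjusted p = 0.0478), and against the arrays labelled PGM2 -0.22 ± 0.07 (adjusted p = 0.0536).

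These small changes sat at the edge of what 2 arrays a group can resolve. The calls of QCR10, ATP15 and ATP17 in E62A against REF all ended without either E62A, either E62B or either REF array, with adjusted p values up to 0.205, 0.273 and 0.269. The ATP17 call also ended without either array labelled PGM2 (0.0616), and the ATP15 call with arrays centred on their medians (0.0577). Against the arrays labelled PGM2, QCR10 lost its call without either E62A, E62B or PGM2 array (up to 0.221) and ATP15 without either E62A array or the first array labelled PGM2 (up to 0.174). The ATP17 call against the arrays labelled E62C ended without either E62A or E62B array or the second array labelled E62C (up to 0.159). That against SO16 ended without either E62A, E62B or PGM2 array or the second SO16 array (up to 0.199). Without both weak arrays these last differences of ATP17 had adjusted p values of 0.0672 and 0.127.

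**Figure D3:**
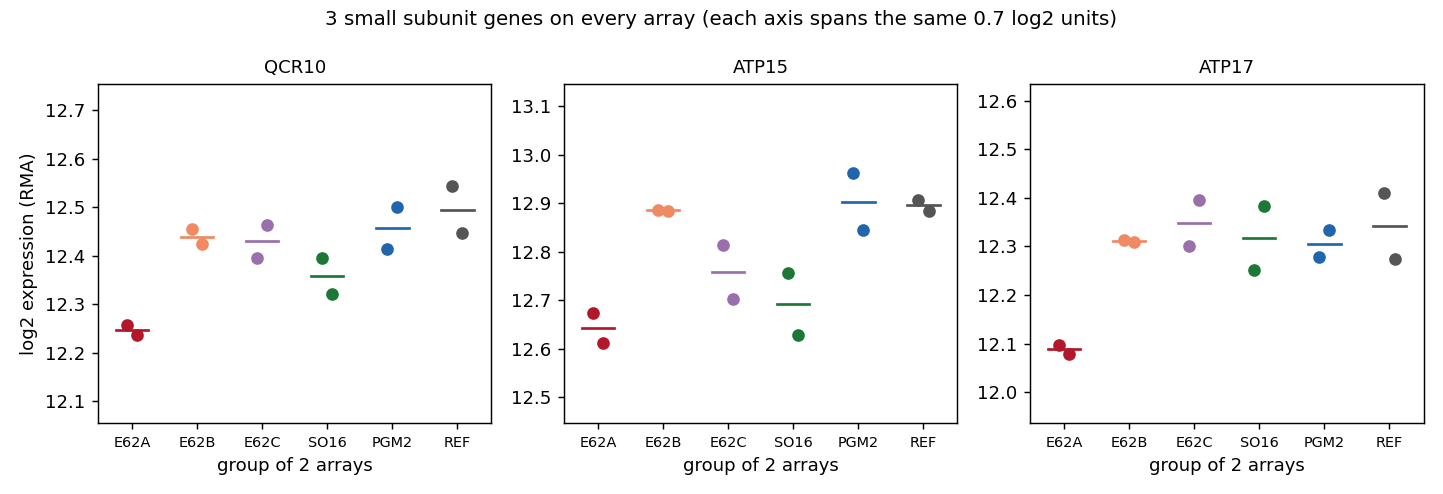
Log2 level of the small subunit genes QCR10, ATP15 and ATP17 on every array (points) with group means (bars), on vertical axes of equal span. The E62A arrays are lowest for QCR10 and ATP17, and for ATP15 they overlap the second SO16 array at 12.63.

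Among the remaining ATP synthase genes, ATP7, a stator subunit, was low in E62A and on the arrays labelled E62C. It lay at 12.59 and 12.63 in E62A, 12.77 and 12.78 in E62B, 12.60 and 12.57 on the arrays labelled E62C, 12.79 and 12.77 in SO16 and 12.73 and 12.83 on the arrays labelled PGM2, against 12.75 and 12.74 in REF. The E62A arrays and those labelled E62C lay below all others, but no comparison called the gene in the main fit. The difference from REF was -0.14 ± 0.06 in E62A (adjusted p = 0.186) and -0.16 ± 0.06 on the arrays labelled E62C (adjusted p = 0.141). Quantile normalization called ATP7 in E62A against SO16 and PGM2 and in E62C against SO16. Testing all probe sets, or a trended, robust variance, called it in E62A against SO16 and PGM2 and in E62C against PGM2. Array weights called it in E62A against PGM2, and so did leaving out the 2 weak arrays. The moderated F test gave an adjusted p of 0.065. ATP3, the gamma subunit that turns inside the head, lay at 12.72 and 12.73 in E62A, against 12.84 and 12.93 in REF, and ATP18, subunit i, at 12.05 and 11.89 on the arrays labelled E62C, against 12.21 and 12.13 in REF. Neither was called. The group means of ATP4, ATP5, ATP14 and ATP16 differed by at most 0.153.

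Set against REF as a whole, E62A was slightly low across the list. In E62A, 33 of 34 genes lay below REF, where 49.2% of all genes did, and NDE2 was the exception. For 26 of 34 both E62A arrays lay below both REF arrays, which holds for 30.6% of all genes. The median difference of the 34 genes was -0.11, against 0.00 for all genes. By complex it was -0.13 for the NADH dehydrogenases (the value of NDI1), -0.06 for complex II, -0.10 for complex III, -0.13 for complex IV and -0.14 for the ATP synthase. E62A had the lowest of the 6 group means for 19 of 34 genes, against 26.4% of all genes. For 9 genes, NDE1, SDH4, QCR6, QCR10, COX4, COX6, ATP3, ATP5 and ATP17, both E62A arrays lay below the other 10 arrays, which holds for 12% of all genes.

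This shift is shared by the same 2 arrays, so the 33 genes are not independent observations, and no test of the list was made. The median of the 34 genes, relative to the REF mean, was -0.11 on each E62A array, and it lay between -0.08 and 0.03 on the other 10 arrays. The median over all genes was 9.35 and 9.39 on the E62A arrays and 9.30 to 9.40 on the other 10, after RMA had equalised the arrays. The median of the 34 genes stayed between -0.13 and -0.10 in all 23 alternative settings. The arrays measured transcripts of whole cultures, and whether the amount of mitochondria per cell differed was not tested.

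The median difference of all 34 genes was nearer 0 in the other groups. It was 0.01 in E62B, -0.06 on the arrays labelled E62C, -0.07 in SO16 and -0.04 on the arrays labelled PGM2, where the medians of all genes were 0.02, 0.03, 0.00 and 0.01. Below REF lay 7 of 34 genes in E62B (40.5% of all genes), 27 on the arrays labelled E62C (42.3%), 26 in SO16 (51.3%) and 22 on the arrays labelled PGM2 (47.7%). Single complexes did not all follow the median. That of the NADH dehydrogenases was -0.14 on the arrays labelled E62C, -0.15 in SO16 and -0.13 on the arrays labelled PGM2. In each of these groups, as in E62A, it is the value of NDI1, which was not called. NDE1 and NDE2 lay on opposite sides of 0 there, so it does not describe the dehydrogenases as a class. The median of complex II was -0.08 on the arrays labelled E62C. For complexes III, IV and V the medians on the arrays labelled E62C and PGM2 and in SO16 lay between -0.08 and -0.01. Both arrays lay below both REF arrays for 1 gene in E62B (13.2% of all genes), 13 on the arrays labelled E62C (19.7%), 14 in SO16 (21.3%) and 9 on the arrays labelled PGM2 (25.8%). E62B had the highest group mean for 18 of 34 genes, and E62B and REF each had the lowest for 0. The shares of all genes were not computed for these counts, so they have no baseline. The differences between E62B and REF ran from -0.08 to 0.11.

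**Figure D4:**
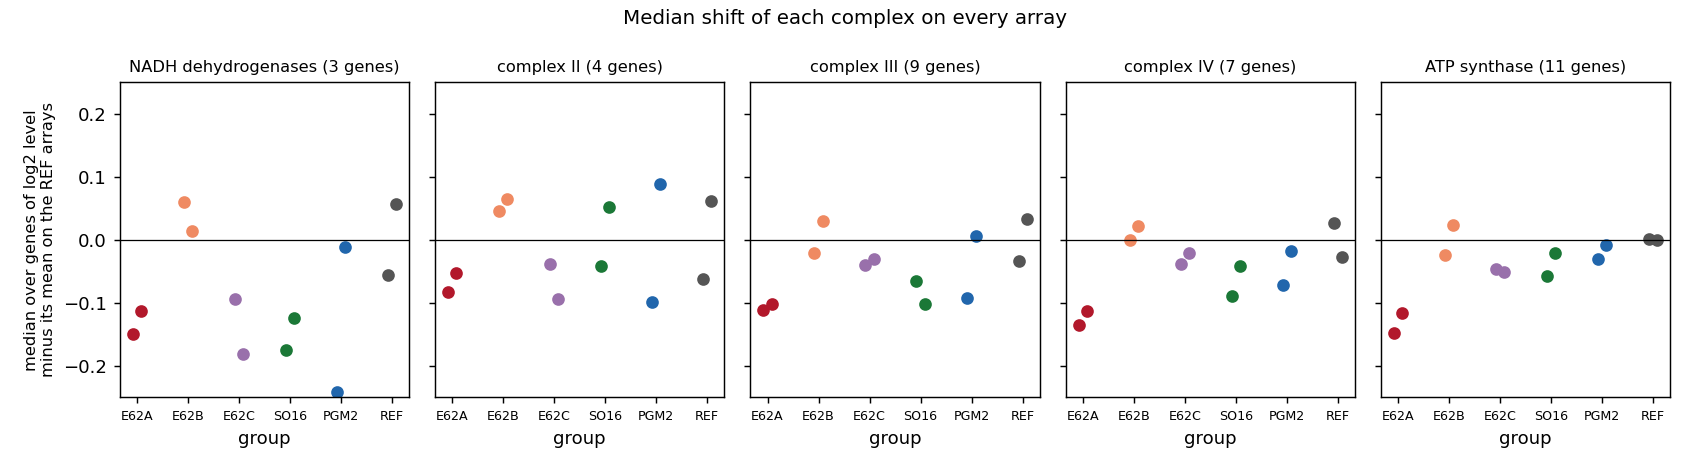
Median over the genes of each complex of the log2 level minus the REF mean, one point per array, for the NADH dehydrogenases and complexes II to V. E62A arrays lie below both REF arrays for the NADH dehydrogenases and in complexes III, IV and V, at -0.10 to -0.15. In complex III the second SO16 array is as low. For the NADH dehydrogenases the arrays of SO16 and those labelled E62C and PGM2 run from -0.24 to -0.01.

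The 95% intervals are for 1 transcript at a time and rest on the spread of arrays within groups, which may be technical. They do not cover a shift of all transcripts, which RMA removes, or differences understated near the top of the scale. The half-width of the 95% interval of a difference from REF ran from 0.129 to 0.248 among the 34 genes, with a median of 0.160. All 34 intervals lay within ±0.5, or 1.41-fold, in E62A and in E62B, against 85.9% and 97.6% of all genes. Among the 428 bright genes these shares were 94.9% and 99.8%. On the arrays labelled E62C and PGM2 and in SO16, 33 of 34 did, NDE2 being the exception. There the shares were 86.1%, 85.4% and 88.3% of all genes, and 91.6%, 91.4% and 93.7% of the bright genes. For the 32 genes other than NDE1 and NDE2, a set trimmed after the values were seen, the lowest bound in E62A was -0.41 (ATP17) and the highest 0.18 (SDH1). On the arrays labelled PGM2 these bounds were -0.35 (COX9) and 0.33 (SDH1). The group means of the 34 genes spanned a median of 0.153, against 0.260 for all genes and 0.177 for the 428 bright genes.

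Between modified groups the calls were likewise few. Between E62A and the arrays labelled E62C, 3 of 34 genes were called, against 17.8% of all genes. It was 3 between E62A and SO16 (19.9%) and 4 between E62A and the arrays labelled PGM2 (22.7%). Of the 428 genes with a mean level of 12 or more, 58, 68 and 73 were called in these pairs. No member was called in limma between the arrays labelled E62C and SO16 (3.43% of all genes, 1 member at an unadjusted p under 0.05), between the arrays labelled E62C and PGM2 (8.85%, 3 members) or between the arrays labelled PGM2 and SO16 (3.4%, 2 members). The genes called in the E62A pairs were NDE1, NDE2, QCR10, ATP15 and ATP17, whose values are given above.

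Some genes that work with the chain but are not among the 34 were called too, and several of them are minor isoforms. COX5A and COX5B encode alternative forms of a complex IV subunit, used in air and at low oxygen. COX5B lay at 7.31 and 7.49 on the arrays labelled E62C, 7.28 and 7.43 in SO16 and 6.96 and 7.12 on the arrays labelled PGM2, against 7.85 and 7.76 in REF. It fell by 0.77 ± 0.09 on the arrays labelled PGM2 (adjusted p = 1.68e-04), by 0.45 ± 0.09 in SO16 (adjusted p = 0.00875) and by 0.40 ± 0.09 on the arrays labelled E62C (adjusted p = 0.016). COX5B was not called in E62A, nor in E62B, where its unadjusted p in limma was under 0.05. COX5A differed from REF by -0.09 to 0.02 in the 5 groups and was not called. The COX5B call in SO16 ended without the first REF array (adjusted p = 0.0888), and that on the arrays labelled E62C without it (0.136) or without the first array labelled E62C (0.0797).

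Cytochrome c, which carries electrons between complexes III and IV, showed the widest gap between isoforms. CYC7, the low-oxygen form, lay at 8.81 and 8.92 in E62A, 8.76 and 9.06 in SO16 and 7.65 and 7.98 on the arrays labelled PGM2, against 9.83 and 9.63 in REF. It fell by 1.92 ± 0.16 on the arrays labelled PGM2 (adjusted p = 1.13e-05), by 0.87 ± 0.16 in E62A (adjusted p = 0.00394) and by 0.82 ± 0.16 in SO16 (adjusted p = 0.00654, and 0.0814 without the first REF array). CYC7 was not called against REF in E62B or on the arrays labelled E62C. On the arrays labelled E62C it was called higher than in SO16 and higher than on the arrays labelled PGM2. The main form CYC1 differed from REF by -0.04 to 0.04 in the 5 groups. Whether the isoforms of a pair differ in their response was not tested.

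**Figure D5:**
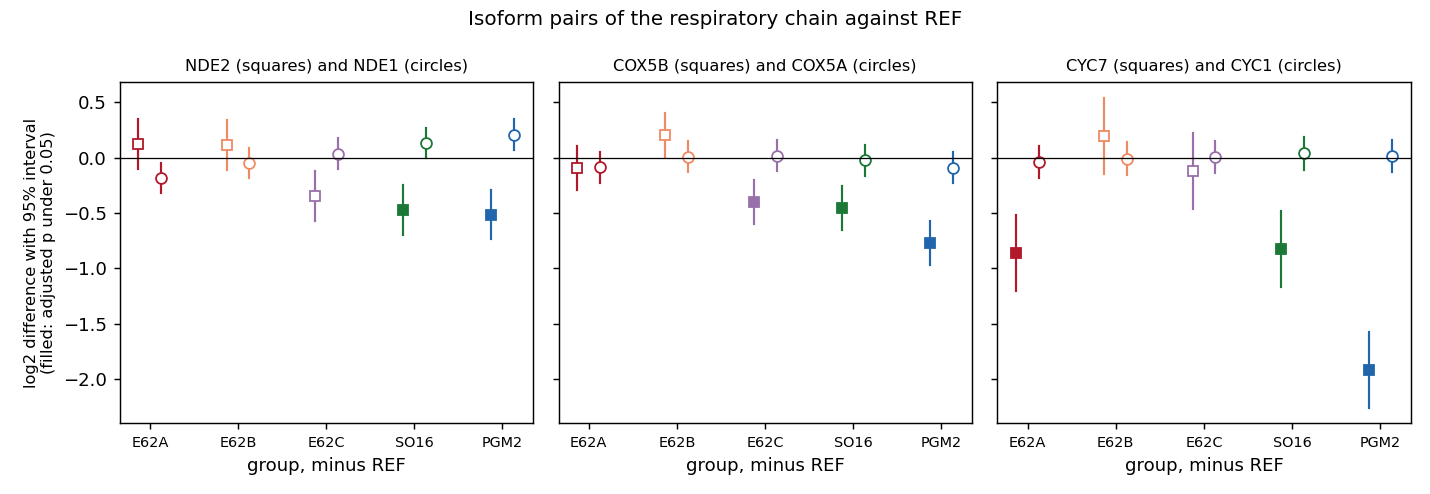
Log2 difference from REF with 95% interval of the isoform pairs NDE2 and NDE1, COX5B and COX5A, and CYC7 and CYC1 in 5 groups (squares for the first gene of a pair, circles for the second, filled where the adjusted p was under 0.05). The circles stay within 0.21 of 0, while on the arrays labelled PGM2 COX5B fell by 0.77 and CYC7 fell by 1.92.

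Of 10 other subunits, isoforms and inhibitors measured, 4 fell in E62A (12.5% of all genes were called), 3 on the arrays labelled E62C (9.8%), 3 in SO16 (8.79%) and 3 on the arrays labelled PGM2 (13.6%), and 0 rose. STF2, a protein that stabilises the inhibited ATP synthase, fell by 1.00 ± 0.17 on the arrays labelled PGM2 (adjusted p = 0.00188), by 0.87 in SO16 (0.00675), by 0.80 on the arrays labelled E62C (0.0105) and by 0.68 in E62A (0.0192). All but the first of these calls ended without the first REF array (0.0887, 0.125 and 0.171). The E62C call also ended without the first array labelled E62C (0.052), and the E62A call without either E62A array (up to 0.114). INH1, the inhibitor of ATP hydrolysis by the synthase, fell by 0.42 ± 0.08 in E62A (adjusted p = 0.00457), and SHH3, a relative of SDH3, by 0.60 ± 0.10 (adjusted p = 0.00213). Both held in all 23 settings. COX26 and YJL045W of this list were not analysed here.

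Genes of other electron donors and carriers gave calls in both directions. GUT2, the mitochondrial glycerol-3-phosphate dehydrogenase, fell by 0.49 ± 0.07 on the arrays labelled E62C (adjusted p = 0.00135), by 0.46 ± 0.07 in SO16 (adjusted p = 0.00212) and by 0.34 ± 0.07 on the arrays labelled PGM2 (adjusted p = 0.00938). The last call ended without the first array labelled PGM2 (0.0682) or the second REF array (0.0642). CYB2, the lactate dehydrogenase that reduces cytochrome c, fell by 0.50 ± 0.10 in SO16 (adjusted p = 0.00718) and by 0.44 ± 0.10 on the arrays labelled PGM2 (adjusted p = 0.0111). Both calls ended without either REF array (up to 0.0552 and 0.0689), and the second also without the first array labelled PGM2 (0.102). CYB5, cytochrome b5, rose by 0.45 ± 0.09 in E62A (adjusted p = 0.0055), a call lost without the first E62A array (0.0725) or the first REF array (0.0514). Of the 8 genes of this list, CYC1 and CYC7 included, 1 rose and 1 fell in E62A (12.5% of all genes were called), 1 fell on the arrays labelled E62C (9.8%), 3 fell in SO16 (8.79%) and 3 on the arrays labelled PGM2 (13.6%).

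PIC2, a mitochondrial phosphate and copper carrier, fell in E62A, on the arrays labelled E62C, in SO16 and on the arrays labelled PGM2. It lay at 11.71 and 11.66 in E62A, 11.48 and 11.31 on the arrays labelled E62C, 11.65 and 11.63 in SO16 and 11.33 and 11.40 on the arrays labelled PGM2, against 12.09 and 12.16 in REF. It fell by 0.44 ± 0.07 in E62A (adjusted p = 0.00253), by 0.73 ± 0.07 on the arrays labelled E62C (8.03e-05), by 0.48 ± 0.07 in SO16 (0.00161) and by 0.76 ± 0.07 on the arrays labelled PGM2 (3.97e-05), in all 23 settings. Of 5 carriers, PIC2 alone fell in each of these groups, and AAC3, a minor ADP/ATP carrier, was the only riser, by 0.35 ± 0.08 in E62A (adjusted p = 0.0157), a call that ended without either E62A or either REF array (up to 0.156).

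Of 10 regulators, 3 were called in SO16 (8.79% of all genes), MIG1 included, and 2 on the arrays labelled PGM2 (13.6%). HAP4, the activating subunit of the Hap complex, lay between 12.10 and 12.27 on all 12 arrays, and its differences from REF ran from -0.06 to 0.05. HAP1, HAP3 and HAP5 were not called in any of the 5 comparisons with REF in the main fit. On the arrays labelled E62C, HAP3 was called in some other settings. It rose by 0.27 with arrays centred on their medians (adjusted p = 0.0476) and by 0.29 with the replicate number as a block (0.0286). Without the second array labelled PGM2, HAP5 lay 0.35 below REF on the array left. HAP2 fell by 0.36 ± 0.11 on the arrays labelled PGM2 (adjusted p = 0.0493), a call that ended without any 1 of 9 arrays, with adjusted p values up to 0.406 without the first array labelled PGM2 and 0.276 without the second REF array. ADR1, an activator of genes for non-fermentable carbon, rose by 0.61 ± 0.09 on the arrays labelled PGM2 (adjusted p = 9.39e-04) and by 0.57 ± 0.09 in SO16 (adjusted p = 0.00225). CAT8, an activator of gluconeogenic genes, rose by 0.48 ± 0.09 in SO16 (adjusted p = 0.0057, and 0.0721 without the first REF array). MIG1, deleted in SO16, was the 1 regulator that fell there. In the main fit 0 of 10 regulators were called in E62A or on the arrays labelled E62C, with 1 in each at an unadjusted p under 0.05 (CAT8 and HAP3). CAT8 was called in E62A, lower, with array weights (adjusted p = 0.0499) and with the block (0.0452).

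Of 37 assembly factors, 2 rose and 1 fell in E62A (12.5% of all genes were called), 1 rose on the arrays labelled E62C (9.8%), 1 fell in SO16 (8.79%) and 3 fell on the arrays labelled PGM2 (13.6%). COX16, needed to assemble complex IV, fell by 0.42 ± 0.08 in E62A (adjusted p = 0.00468). CBP6, which acts in making cytochrome b, fell by 0.42 ± 0.09 in SO16 (adjusted p = 0.0137) and by 0.32 ± 0.09 on the arrays labelled PGM2 (adjusted p = 0.0392). SCO2, a copper protein related to the complex IV assembly factor Sco1, fell by 0.37 ± 0.10 on the arrays labelled PGM2 (adjusted p = 0.0381). The CBP6 and SCO2 calls ended without either REF array, with adjusted p values up to 0.0947 for CBP6 in SO16, and up to 0.333 for CBP6 and 0.299 for SCO2 on the arrays labelled PGM2, where they also ended without the first array labelled PGM2 or without any 1 E62A or E62B array.

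Of 9 genes of ubiquinone synthesis, 4 fell on the arrays labelled PGM2, where 13.6% of all genes were called. In E62A (12.5%), in SO16 (8.79%) and on the arrays labelled E62C (9.8%) 1 fell. COQ9, a lipid-binding partner of the hydroxylase Coq7, fell by 0.42 ± 0.08 on the arrays labelled PGM2 (adjusted p = 0.00334), by 0.29 on the arrays labelled E62C (0.0365) and by 0.27 in E62A (0.0414). The first call held in all 23 settings, and the other 2 ended without the second REF array, among others, with adjusted p values up to 0.197 and 0.279. The methyltransferase genes COQ5 and COQ3 fell on the arrays labelled PGM2, by 0.30 (0.04) and 0.32 (0.0426), and COQ5 fell in SO16 by 0.37 (0.0178). These 3 calls ended without either REF array, among others, with adjusted p values up to 0.225, 0.237 and 0.125. Of 10 translational activators of mitochondrial messages, 0 were called by limma in the 5 comparisons with REF, and CBS2 had an unadjusted p under 0.05 in SO16 and on the arrays labelled E62C. The 7 subunits encoded in mitochondrial DNA and COQ7 were not analysed here.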

How the data were processed

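The authors deposited 1 table of log2 values for 10928 probe sets on 12 arrays. Total RNA was labelled with biotin following the Affymetrix manual, per the labels' protocols, and the submitters' processing notes name RMA and affy, without versions. RMA equalises the arrays, so a shift of all transcripts would be removed. Differences near both ends of the scale can be understated. Probe sets were named through the platform table and the gene tables of assembly R64, and the probe set with the highest mean was kept for each of 5449 genes. Background was 6.0, the 95th percentile of 1746 fission yeast probe sets.

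Groups came from the sample titles. The main model, in limma 3.58.1 (lmFit, contrasts.fit, eBayes; R 4.3.3), held one mean per group over all 12 arrays (6 residual and 4.97 prior degrees of freedom), with p values adjusted by Benjamini-Hochberg within each of 11 comparisons. With 2 arrays on each side, the smallest p of an exact permutation test is 0.333. The fit was tested on simulated data with independent errors. That test cannot show how the fit handles deviations that arrays share. The members and lists were chosen with earlier results of these data known. Values on every array are given for members called in any comparison. Of other lists, HAP1 to HAP5, CYC1, CYC7, COX5A and COX5B are named, with up to 3 called genes of each further list that differ most from REF. SDH1, SDH3, NDI1, COX8, COX9, ATP1, ATP3, ATP7 and ATP18 were chosen for fuller description after their values were seen. Alternatives at the same threshold were 11 changes of normalization, filters, probe sets, variance models, samples or a replicate block, and 12 fits with 1 array left out, 23 settings in all. A stricter threshold was tried as well. The labels of the groups called E62C and PGM2 are kept as given, although the PGM2 transcript goes against them. A planned count of promoter motifs was not run, and no sequences are used here.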

Additional observations from a re-analysis of the deposited data

How the results depend on the processing

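The 2 arrays of a group limit every call, and 32 of 34 genes lie near the top of the scale. Of the 34 genes, E62A against REF had 3 called and 0 to 3 without replicates in turn. The ranges were 0 to 3 for E62A against E62C, 1 to 3 for E62A against SO16, 2 to 5 for E62A against PGM2, 0 to 1 for SO16 against REF, 0 to 2 for PGM2 against REF, 0 to 1 for E62C against REF, 0 to 1 for E62C against PGM2 and 1 to 4 for the F test. They were 0 to 0 for E62B against REF, E62C against SO16 and PGM2 against SO16. At an adjusted p under 0.01, 0 genes were called in E62A against REF, 0 in SO16 against REF, 1 in E62A against E62C and 2 in E62A against PGM2. With arrays centred on their medians, 1 was called in E62C against REF (NDE2) and 2 in PGM2 against REF (NDE1, higher, and NDE2). Quantile normalization gave 1 in E62C against REF, 2 in each of SO16 and PGM2 against REF, 7 in E62A against SO16 and 1 in E62C against SO16. The 7 added SDH1, SDH4, QCR6 and ATP7 to the main calls, and the last was ATP7. Testing all probe sets gave 2 in PGM2 against REF and 1 in E62C against PGM2, and a trended, robust variance gave 2, 1 and, in the F test, 6. Array weights gave 0 in SO16 against REF, 2 in PGM2 against REF, 7 in E62A against PGM2 and 9 in the F test. A fit of only the groups compared gave 1 in E62A against E62C. Without the 2 weak arrays, 1 was called in E62C against REF, 2 in PGM2 against REF, 7 in E62A against PGM2 and 5 in the F test. Among single calls not given so far, array weights ended COX5B in SO16 (0.0583), CBP6 in SO16 (0.102), COQ9 in E62C (0.078), COQ5 in SO16 (0.0542) and ATP17 in E62A against SO16 (0.0885). Median centring ended QCR10 in E62A against PGM2 (0.0703), and quantile normalization ended HAP2 in PGM2 (0.0517). A fit of only the groups compared ended NDE1 (0.0708) and ATP17 (0.0587) in E62A against E62C, ATP17 in E62A against SO16 (0.133), HAP2 in PGM2 (0.0652), COQ9 in E62C (0.134) and COQ5 in SO16 (0.0699). Testing all probe sets ended STF2 in E62A (0.0513) and, in PGM2, HAP2 (0.0936), CBP6 (0.0607), SCO2 (0.0695), COQ5 (0.0547) and COQ3 (0.069). Other settings added calls against REF. Median centring and quantile normalization added SHH3, lower in E62C (0.0444 and 0.0389) and in SO16 (0.0352 and 0.0444). Both settings also added COQ9, lower in SO16 (0.0218 and 0.0248). Array weights added CYB2, lower (0.0382), and SCO2, higher (0.0187), in E62A. Without the 2 weak arrays, COX16 and SCO2 lay 0.32 and 0.44 below REF on the SO16 array left. Further gains of this kind are not listed. The cause of these moves was not tested.

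Same-numbered arrays deviated together in some groups and not in others, so the numbers were not taken as pairs. The correlations of their deviations ran from -0.35 to 0.54 and exceeded 0.1 in 6 of 15 pairs of groups, 3 of them among E62A, E62C and SO16 and 3 among E62B, PGM2 and REF, with 0.53 between PGM2 and REF. With the replicate number as a block, 2 genes were called in PGM2 against REF (NDE1 added) and 1 in E62C against PGM2 (ATP18). Under the other settings of each comparison the count stayed within 1.5 times its main value, and no named value changed sign with a call.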
